A study of Mus musculus with 54 samples.

Results

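The genes followed here are 41 genes of the cell division cycle, chosen by symbol and read in sorted cells of the mouse fetal intestine. They comprise 24 genes of DNA replication, 15 genes of mitosis and both cyclin E genes, out of 17393 gene IDs in the series. All 41 were present and passed the filter on low values in each of the 4 deposited tables. Embryonic day 16.5 (E16.5) intestines were cut into 5 equal lengths, and the distal, mid and proximal ones were sorted by antibody into live cells free of endothelial CD31 and leukocyte CD45. EpCAM+ cells are the epithelium. The EpCAM- cells were split into PDGFRA-HIGH cells with medium CD29, which lie beside the epithelium, PDGFRA-MED cells with medium CD29, the bulk of the mesenchyme, and CD29-HIGH cells with medium PDGFRA, in which muscle genes are high. Untreated fetuses were C57Bl/6J, with 3 libraries for each sort and region, and 3 further libraries each came from distal and proximal epithelium at E13.5, from intestines cut in 3. LGK974, an inhibitor of the acyltransferase porcupine that blocks secretion of Wnt ligands, was given to Top.CFP dams 2 times a day between E12.5 and E16.5, and epithelium was sorted from their fetuses (3 libraries a region). Vehicle-treated Top.CFP epithelium gave 1 library a region, so the control set of 4 in each region joins 3 untreated C57Bl/6J libraries with 1 vehicle library, and strain and experiment differ between LGK974 and the untreated controls. The mother is the replicate in the study's methods, and the p-values measure the spread between these libraries.

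Before a cell divides it copies its DNA once. The Mcm helicase is loaded at origins with the help of Cdc6, is activated by Cdc45 and the Gins proteins, and is followed by primase, the polymerases and the sliding clamp Pcna, which Rfc4 helps to load, while Rrm1, Rrm2, Tk1 and Tyms supply nucleotides. Cyclin E (Ccne1, Ccne2) drives entry into this phase. Cdk1 with cyclins A and B then starts mitosis, in which Aurka, Aurkb, Plk1, Kif11 and Tpx2 build and run the spindle, Bub1 and Bub1b hold the checkpoint, and Cdc20 releases it. In vertebrates many replication genes are controlled through E2F sites and many mitotic genes through a CHR element paired with CCAAT boxes. In the fetal intestine both the epithelium and the mesenchyme grow fast at these ages.

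The promoters of the members that differed most between the mesenchymal sorts are printed to show these letters where they occur. They run from 250 bases before to 50 bases after the RefSeq transcript start on GRCm38.p6, each 5′ to 3′ on the strand of its gene. Capitals mark an E2F core (TTCCCGC or TTCGCGC or TTGCCGC or TTGGCGC), a CHR element (TTTGAA or TTCGAA) or a CCAAT box (CCAAT), on either strand, with overlapping matches run together. Mcm6 was added after the matches had been seen, as the member with the most E2F core matches when overlapping ones are counted separately.
Tk1 (thymidine kinase, chr11:117825965-117826264, minus strand): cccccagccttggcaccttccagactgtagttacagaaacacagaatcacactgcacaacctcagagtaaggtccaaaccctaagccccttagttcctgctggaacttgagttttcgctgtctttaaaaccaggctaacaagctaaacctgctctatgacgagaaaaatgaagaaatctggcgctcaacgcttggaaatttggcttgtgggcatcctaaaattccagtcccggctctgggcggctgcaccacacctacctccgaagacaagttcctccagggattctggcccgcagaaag
Uhrf1 (maintenance of DNA methylation behind the fork, chr17:56303087-56303386, plus strand): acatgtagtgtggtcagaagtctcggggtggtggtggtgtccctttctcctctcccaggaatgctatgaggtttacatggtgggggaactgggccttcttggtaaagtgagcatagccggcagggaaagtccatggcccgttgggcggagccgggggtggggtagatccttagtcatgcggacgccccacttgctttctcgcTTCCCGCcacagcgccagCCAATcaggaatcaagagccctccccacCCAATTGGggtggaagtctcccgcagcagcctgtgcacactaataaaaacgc
Mcm6 (helicase subunit, chr1:128359656-128359955, minus strand): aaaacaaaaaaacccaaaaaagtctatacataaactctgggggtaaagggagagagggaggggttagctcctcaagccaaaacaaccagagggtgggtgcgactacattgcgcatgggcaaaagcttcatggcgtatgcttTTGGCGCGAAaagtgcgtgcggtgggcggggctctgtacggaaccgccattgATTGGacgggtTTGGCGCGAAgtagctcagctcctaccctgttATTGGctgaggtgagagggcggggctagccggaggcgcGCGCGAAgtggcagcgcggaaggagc
Mki67 (coat of mitotic chromosomes, chr7:135716330-135716629, minus strand): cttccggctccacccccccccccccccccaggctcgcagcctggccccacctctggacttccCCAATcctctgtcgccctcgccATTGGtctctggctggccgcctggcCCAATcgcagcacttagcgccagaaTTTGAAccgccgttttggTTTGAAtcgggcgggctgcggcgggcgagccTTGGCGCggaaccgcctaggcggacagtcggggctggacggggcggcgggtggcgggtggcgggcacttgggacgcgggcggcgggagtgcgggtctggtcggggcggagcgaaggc
Top2a (topoisomerase that untangles sister DNA, chr11:99024140-99024439, minus strand): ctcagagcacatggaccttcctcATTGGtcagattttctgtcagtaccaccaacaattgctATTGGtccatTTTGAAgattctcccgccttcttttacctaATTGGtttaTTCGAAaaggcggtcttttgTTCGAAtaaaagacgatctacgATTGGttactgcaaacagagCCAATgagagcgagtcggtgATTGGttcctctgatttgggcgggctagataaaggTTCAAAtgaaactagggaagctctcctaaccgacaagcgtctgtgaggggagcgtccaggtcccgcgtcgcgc
Overlapping matches were counted separately, as for the E2F cores of Mcm6 on opposite strands. The Mcm6 window held 5 E2F core matches, 0 CHR elements and 2 CCAAT boxes, and the Uhrf1 window 1, 0 and 3. The Mki67 window held 1, 2 and 3, and the Top2a window 0, 4 and 6. The Tk1 window held none of these letters, although Tk1 differed most between the sorts.

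RefSeq gave a window for 33 of the 41 members, and 3 of these had more than 1 start, of which the first listed was taken. An E2F core stood in 12 of 20 replication windows (60%) and 3 of 12 mitosis windows (25%), against 9.69% of all 27025 gene promoters of the same length. A CHR element with a CCAAT box stood in 3 of 20 replication windows (15%) and 10 of 12 mitosis windows (83.3%), against 7.7% of all promoters. CCAAT alone was found in 60% of replication windows, 91.7% of mitosis windows and 37.9% of all. The plot of motif shares gives these values with those for CHR alone. The matches describe the letters of these windows, and no binding was measured.

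**Figure D1:**
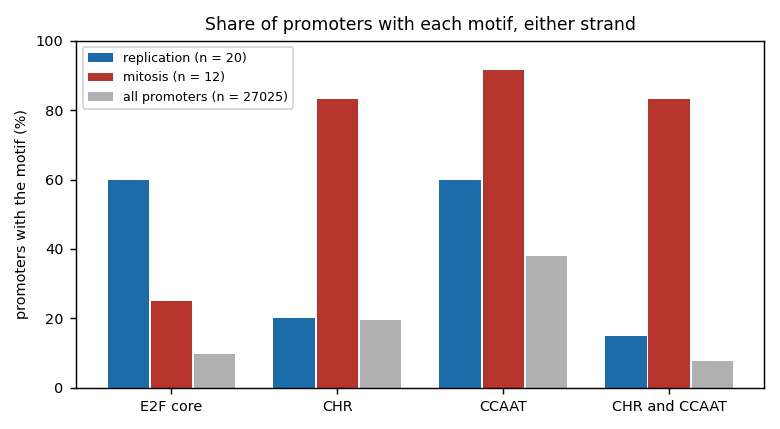
Share of promoter windows (percent, from 0) that hold each motif in replication members (n = 20), mitosis members (n = 12) and all gene promoters (n = 27025). E2F cores were most frequent in replication windows (60%), and CHR elements with a CCAAT box in mitosis windows (83.3%).

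The libraries held 15072991 to 26658039 reads, recovered as whole numbers from the deposited RPKM values, and the lowest count of any member in any library was 20 reads. The sorts carried the markers of their labels. The sum of 8 epithelial markers was 1852 to 2381 RPKM in EpCAM libraries at E16.5, 2.27 to 27.4 in PDGFRA-HIGH and 5.78 to 42.0 in PDGFRA-MED, and the sum of 6 smooth muscle markers was 14661 to 25473 RPKM in CD29-HIGH and 190 to 328 in PDGFRA-MED libraries of the same table. PDGFRA-MED libraries held more of some other cell types than PDGFRA-HIGH libraries did: 6 enteric neural markers summed to 1.51 to 5.34 RPKM in PDGFRA-HIGH and 4.32 to 66.7 in PDGFRA-MED, 4 detected blood markers to 0.964 to 4.04 and 1.47 to 117, and 4 mesothelial markers, 4 of which were at 0 in a PDGFRA-HIGH library, to 0 to 0.216 and 0.849 to 11.7. Smooth muscle and endothelial markers did not follow this order. The smooth muscle sum was 129 to 646 RPKM in PDGFRA-HIGH and, scaled with them, 197 to 340 in PDGFRA-MED libraries. In distal intestine 6 endothelial markers summed to 5.50 to 5.82 RPKM in PDGFRA-HIGH and 3.27 to 4.09 in PDGFRA-MED, but in proximal intestine to 3.24 to 4.47 and 4.92 to 8.10. The sum of 5 pancreas markers was 1951 to 4014 RPKM in proximal, 0.543 to 330 in mid and 0.0255 to 3.95 in distal EpCAM libraries. In proximal mesenchyme it was 2.27 to 207 RPKM in PDGFRA-MED and 2.87 to 88.6 in PDGFRA-HIGH libraries. The part of these other cells in the differences between sorts or regions was not tested.

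Replication and mitosis genes were lower in PDGFRA-HIGH than in PDGFRA-MED cells in all regions, least so the mitosis genes in distal intestine. A gene was called when its difference passed a minimum of 0.5 on the log2(RPKM + 0.5) scale at an adjusted p under 0.05 in the same direction in each of the 3 regions. By this rule 37 of the 41 fell in PDGFRA-HIGH cells, among them 24 of 24 replication genes, 11 of 15 mitosis genes and both cyclin E genes, whereas 8.04% of the 14732 genes tested fell. The 9 PDGFRA-HIGH libraries lay below the 9 PDGFRA-MED libraries without overlap for all 41 members, which held for 17.9% of all genes. Averaged over regions, the median log2 difference was -2.08 for replication genes (range -2.99 to -1.22) and -1.80 for mitosis genes, and -0.02 over all genes. In sorted bulk cells, fewer cells of a type (here, cells in cycle) and less RNA per cell cannot be told apart.

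Tk1 differed most of all members. It had 3.21, 3.39 and 1.42 RPKM in distal, 2.52, 1.43 and 1.26 in mid and 2.81, 1.34 and 0.846 in proximal PDGFRA-HIGH libraries, against 16.8 to 20.2 RPKM in the 9 PDGFRA-MED libraries. The difference was -2.99 ± 0.12 (SE) on the log2 scale, 7.93-fold lower in PDGFRA-HIGH cells (limma adjusted p = 4.23e-13). Uhrf1 had 3.24 to 10.2 RPKM in PDGFRA-HIGH and 38.2 to 45.5 in PDGFRA-MED libraries (-2.81 ± 0.10, adjusted p = 6.01e-14). Mcm6 had 15.5, 10.004 and 10.3 RPKM in distal, 13.2, 8.37 and 9.70 in mid and 13.1, 9.24 and 10.3 in proximal PDGFRA-HIGH libraries, against 68.2, 78.6 and 86.1, 76.3, 74.2 and 77.7, and 74.6, 74.3 and 84.4 RPKM in PDGFRA-MED libraries of the same regions. Its 2 groups were thus separated by a wide gap in each region, with little change along the gut. Pcna, which also serves DNA repair, differed less: 21.1 to 36.2 RPKM in PDGFRA-HIGH and 56.1 to 78.8 in PDGFRA-MED libraries (-1.30 ± 0.06, 2.46-fold lower, adjusted p = 3.69e-10).

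**Figure D2:**
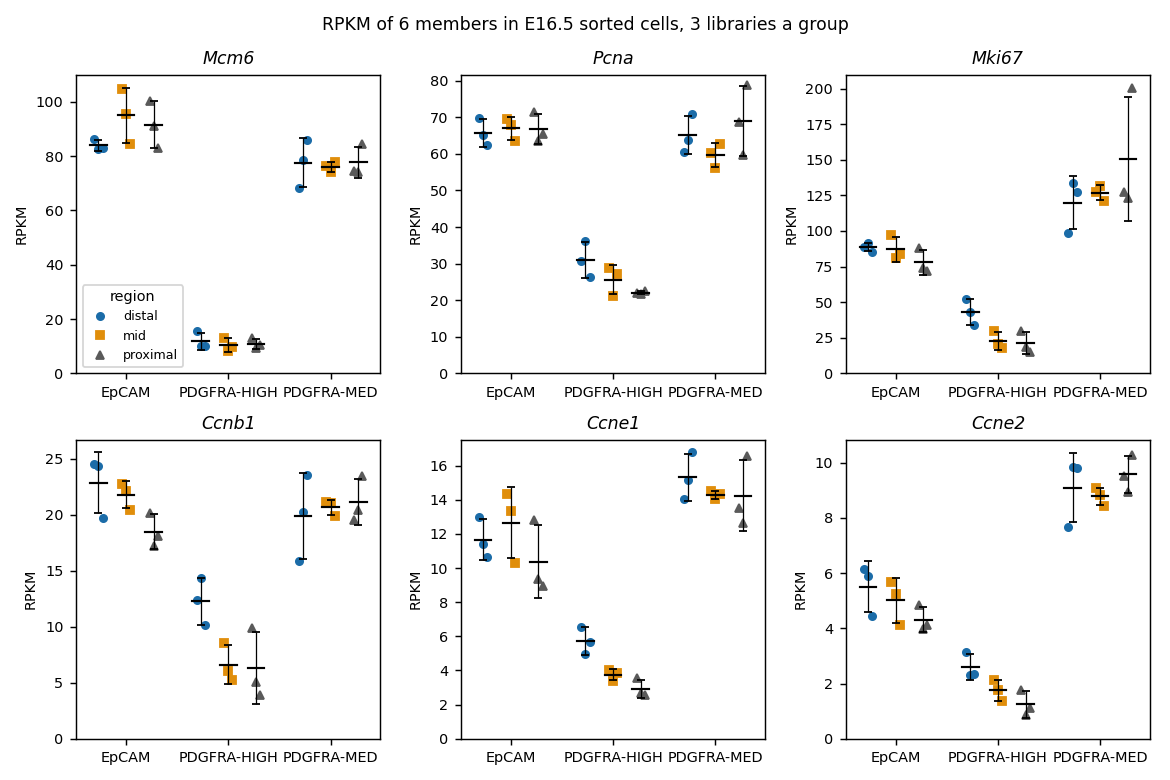
RPKM (linear axis from 0) of single libraries in EpCAM, PDGFRA-HIGH and PDGFRA-MED sorts by region, with mean ± SD (n = 3). PDGFRA-HIGH libraries lay lowest, for example 8.37 to 15.5 RPKM of Mcm6 against 68.2 to 86.1 in PDGFRA-MED.

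Among the mitosis genes, Mki67 had 52.0, 43.2 and 34.2 RPKM in distal, 30.1, 20.8 and 18.2 in mid and 29.7, 18.8 and 14.9 in proximal PDGFRA-HIGH libraries. In PDGFRA-MED it had 98.5, 134 and 128 RPKM in distal, 127, 132 and 121 in mid and 128, 123 and 200 in proximal libraries. No library of one sort reached into the other, and the distal PDGFRA-HIGH libraries were the highest of their sort (-2.25 ± 0.12 over regions, 4.77-fold lower in PDGFRA-HIGH, adjusted p = 9.7e-11). Aurkb, the kinase of the chromosomal passenger complex, had 1.49 to 8.17 RPKM in PDGFRA-HIGH and 17.8 to 21.5 in PDGFRA-MED libraries (-2.16 ± 0.13). Top2a had 53.2, 46.3 and 35.4 RPKM in distal, 35.4, 21.8 and 18.5 in mid and 33.4, 16.2 and 14.5 in proximal PDGFRA-HIGH libraries, against 97.6 to 128 RPKM in PDGFRA-MED (-2.03 ± 0.12). Both cyclin E genes fell too. Ccne1 had 2.55 to 6.55 RPKM in PDGFRA-HIGH and 12.6 to 16.8 in PDGFRA-MED libraries (-1.75 ± 0.07), and Ccne2 0.847 to 3.13 and 7.66 to 10.3 (-2.08 ± 0.09). The smallest change over regions among mitosis genes was that of Cdk1, with 9.59 to 14.4 RPKM in PDGFRA-HIGH and 21.4 to 27.4 in PDGFRA-MED libraries (-0.99 ± 0.07).

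**Figure D3:**
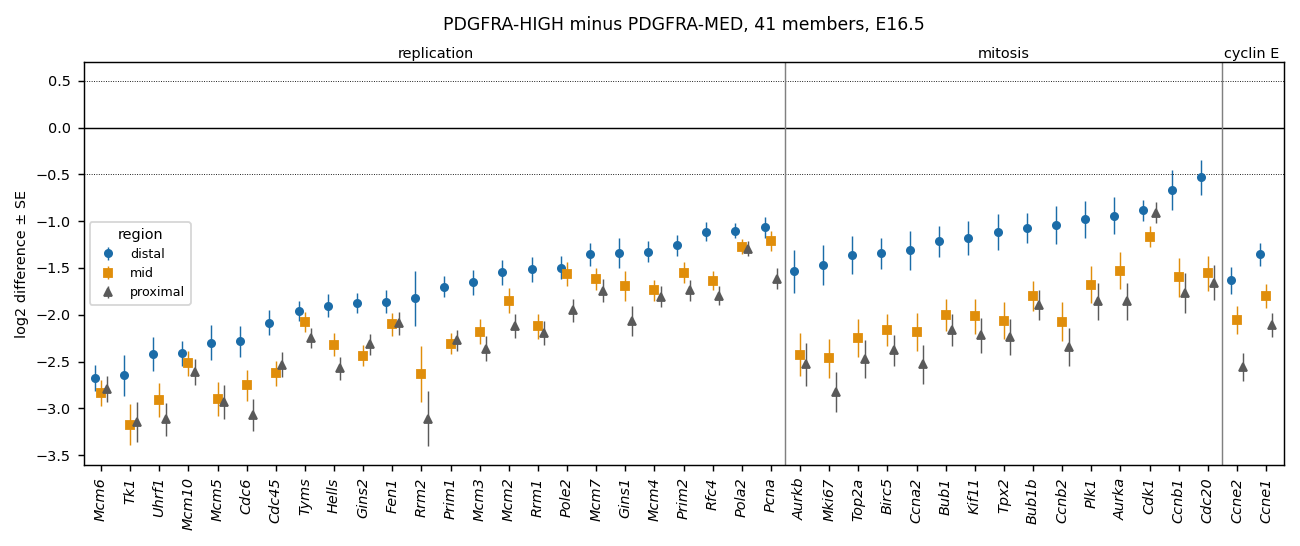
PDGFRA-HIGH minus PDGFRA-MED difference of each member (log2(RPKM + 0.5), ± SE) in distal, mid and proximal intestine, with dotted lines at -0.5 and 0.5. All points are negative, and mitosis genes lie closest to 0 in distal intestine (median -1.12, against -2.22 in proximal).

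The 4 mitosis genes that were not called missed the threshold in distal intestine alone. Ccnb1, cyclin B1, had 12.4, 14.3 and 10.1 RPKM in distal PDGFRA-HIGH libraries and 15.9, 20.2 and 23.5 in distal PDGFRA-MED libraries (-0.67 ± 0.21, adjusted p = 0.777), but the difference was -1.60 in mid and -1.76 in proximal intestine. Cdc20 had 13.2, 14.7 and 9.43 RPKM in PDGFRA-HIGH and 15.4, 19.1 and 19.5 in PDGFRA-MED distal libraries (-0.53 ± 0.19, adjusted p = 1). Aurka had 6.51, 6.41 and 4.40 against 10.6, 10.8 and 13.0 RPKM (-0.94 ± 0.20, adjusted p = 0.0894), and Plk1 9.18, 8.47 and 5.599 against 13.5, 16.4 and 16.7 RPKM (-0.98 ± 0.20, adjusted p = 0.0632). The libraries of the sorts did not overlap for any of these 4. The median difference of mitosis genes was -1.12 in distal, -2.02 in mid and -2.22 in proximal intestine, and that of replication genes -1.76, -2.15 and -2.26.

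The difference between distal and proximal intestine was then fitted itself, a contrast added after the data had been seen. It was positive for all 41 members, that is, the PDGFRA-HIGH deficit was smaller in distal cells, with a median of 1.04 for mitosis and 0.52 for replication genes. No member passed in limma (1.27% of all genes did), and none in limma-voom on the recovered reads, while 10 mitosis genes, 1 replication gene and 1 cyclin E gene had an unadjusted p under 0.05, as did 4.32% of all genes. The largest was Mki67 (1.35 ± 0.30, adjusted p = 0.246). Without proximal PDGFRA-HIGH replicate 1, which had the highest mean level of these genes in its group, 8 members passed. Distal PDGFRA-HIGH replicate 1, likewise the highest of its group, was kept in that fit.

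This contrast contains the distal minus proximal difference within PDGFRA-HIGH cells, from the same libraries, so what follows is not a separate result. Distal libraries were higher than proximal ones on average for all 41 members, with a median difference of 0.96 for mitosis genes, 0.86 for both cyclin E genes and 0.52 for replication genes, against -0.02 for all genes. The 3 distal libraries lay above the 3 proximal ones for 18 of 41 members, compared with 14.5% of all genes. Between any 2 regions, 0 members passed the limma test (2.53% of all genes did) and 0 passed with limma-voom. In the distal minus proximal contrast 12 mitosis, 2 replication and 2 cyclin E genes had an unadjusted p under 0.05, as did 5.55% of all genes. Top2a came closest (1.14 ± 0.20, adjusted p = 0.0927), followed by the spindle motor Kif11 (1.06 ± 0.18, adjusted p = 0.115). Of the cyclin E genes, Ccne1 had 6.55, 4.94 and 5.64 RPKM in distal and 3.55, 2.68 and 2.55 in proximal libraries (0.86 ± 0.13, adjusted p = 0.142), with no overlap. Among replication genes the nearest were the chromatin remodeller Hells (0.83 ± 0.12, adjusted p = 0.202) and Mcm3 (0.84 ± 0.14, adjusted p = 0.278). Mcm6 barely differed (0.11 ± 0.14, 95% interval -0.17 to 0.39).

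This count depends on which library is left out. Proximal PDGFRA-HIGH replicate 1 had a mean mitosis level of 3.39 on the log2(RPKM + 0.5) scale, while the lowest of its group was at 2.30. Replicate 1 was also the highest of its group in distal (3.85) and mid intestine (3.26). Without proximal replicate 1, but with distal replicate 1 kept, 13 members, 12 of mitosis and 1 of replication, passed between regions. Without distal replicate 3, 1 member passed. Outside the members, 4 of 55 other mitosis genes (7.27%) and 0 of 50 other replication genes passed between any 2 regions, next to 2.53% of all genes. These 4 mitosis genes were higher in distal than in proximal PDGFRA-HIGH cells. They were Cenpf (1.34 ± 0.16, adjusted p = 0.00141), Aspm, Ckap2l and Cenpa, which serve the kinetochore and the spindle. Ccnd1, cyclin D1 of the G1 phase, was also higher, with 2.62 to 6.56 RPKM in distal and 0.715 to 1.28 in proximal PDGFRA-HIGH libraries (1.69 ± 0.22).

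Other genes of the pathway moved with the members between the sorts. Of 50 further replication genes, 34 fell in PDGFRA-HIGH cells in all 3 regions and none rose, led by the checkpoint mediator Clspn (-2.77 ± 0.10), Dtl (-2.62 ± 0.08) and the polymerase subunit Pole (-2.59 ± 0.09). Of 55 further mitosis genes 36 fell, led by Mybl2 (-2.41 ± 0.08), Spc24 (-2.33 ± 0.15) and Melk (-2.23 ± 0.11). Of 24 regulators of the G1 phase 10 fell, among them E2f8 (-2.79 ± 0.13), E2f7 (-2.36 ± 0.09) and Ccnd1 (-2.20 ± 0.13). Of 6 inhibitors of cyclin-dependent kinases tested, 3 rose, compared with 7.79% of all genes, 1 fell and 2 were not called. Those that rose were Cdkn1a, with 1.33 to 2.25 RPKM in PDGFRA-HIGH and 0.230 to 0.825 in PDGFRA-MED libraries (1.18 ± 0.09), Cdkn1b, with 31.7 to 39.7 and 13.6 to 19.0 RPKM (1.07 ± 0.04), and Cdkn1c, with 440 to 707 and 239 to 338 RPKM (0.91 ± 0.07), while Cdkn2c fell (-1.65 ± 0.09).

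The epithelium stood well above PDGFRA-HIGH cells as well. In all 3 regions 33 members were called higher in EpCAM cells, 22 of 24 replication, 9 of 15 mitosis and both cyclin E genes, next to 25.5% of all genes, and 0 were called lower. The median difference over regions was 1.81 for replication and 1.63 for mitosis genes, and 0.04 for all genes. Libraries did not overlap for 41 members in distal, 41 in mid and 40 in proximal intestine, compared with 43.4%, 43% and 44% of all genes. Both comparisons share the PDGFRA-HIGH libraries.

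Mcm10, which keeps the helicase on DNA, differed most, with 13.7 to 20.0 RPKM in EpCAM and 0.765 to 1.89 in PDGFRA-HIGH libraries (3.36 ± 0.08, 10.3-fold higher, adjusted p = 3.09e-19). Tk1 had 17.5 to 25.7 RPKM in EpCAM and 0.846 to 3.39 in PDGFRA-HIGH libraries (3.21 ± 0.12), and Uhrf1 31.9 to 61.5 and 3.24 to 10.2 RPKM (3.003 ± 0.10). Of mitosis genes the passenger protein Birc5 led, with 14.9 to 19.0 RPKM in EpCAM and 1.40 to 4.87 in PDGFRA-HIGH libraries (2.43 ± 0.10, 5.40-fold higher, adjusted p = 3.88e-14), ahead of Ccna2 (1.996 ± 0.12) and Aurkb (1.88 ± 0.13). The exceptions among replication genes both failed in distal intestine: Mcm4 had 36.2, 32.5 and 34.1 RPKM in distal EpCAM and 31.4, 25.3 and 22.7 in distal PDGFRA-HIGH libraries (0.38 ± 0.11, adjusted p = 1), and Prim2, of the primase, 9.98, 9.15 and 9.93 against 6.51, 5.92 and 5.10 RPKM (0.69 ± 0.11, adjusted p = 0.0941). Averaged over regions, Mcm4 was also not called. Cdk1 had the smallest difference of all members (0.48 ± 0.07 over regions, adjusted p = 0.89). When the distal minus proximal difference of this contrast was fitted, also an added contrast, 0 members passed in limma (6.33% of all genes did) and 0 in limma-voom, and 1, a mitosis gene, had an unadjusted p under 0.05 (10.2% of all genes did). Without proximal PDGFRA-HIGH replicate 1, 5 passed.

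Between the epithelium and PDGFRA-MED cells 1 member was called in all regions, Mcm4, lower in EpCAM cells (21.3% of all genes were called lower and 21.4% higher). It had 36.2, 32.5 and 34.1 RPKM in distal, 36.9, 31.7 and 28.3 in mid and 32.2, 26.4 and 25.2 in proximal EpCAM libraries, against 58.6 to 73.1 RPKM in PDGFRA-MED (-0.996 ± 0.07, adjusted p = 3.03e-07). The groups were far apart in every region. The 9 EpCAM libraries lay below the 9 PDGFRA-MED libraries without overlap for 8 replication, 6 mitosis and 1 cyclin E gene (31.3% of all genes) and above them for 1 replication and 2 mitosis genes (32.1% of all genes). The median over regions was -0.22 for replication and -0.17 for mitosis genes, and 0.03 for all genes. Averaged over regions, Ccne2 (-0.84 ± 0.09, adjusted p = 0.000784) and the spindle factor Tpx2 (-0.79 ± 0.11, adjusted p = 0.015) were lower and Mcm10 (0.85 ± 0.08, adjusted p = 0.000232) was higher in EpCAM cells, but none of these 3 passed in each region. For 3 of the genes shown above the difference was small, with narrow 95% intervals: Mcm6 at 0.22 (0.06 to 0.38), Pcna at 0.05 (-0.09 to 0.18) and Ccnb1 at 0.03 (-0.23 to 0.29). Mki67 had 71.7 to 97.0 RPKM in EpCAM and 98.5 to 200 in PDGFRA-MED libraries (-0.63 ± 0.12, adjusted p = 0.264).

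Of the 6 inhibitors tested, 2 rose and 4 fell in EpCAM relative to PDGFRA-HIGH cells, while 25.5% of all genes rose and 23.6% fell. Cdkn1a had 14.5 to 18.7 RPKM in EpCAM libraries, above both mesenchymal sorts (2.89 ± 0.09 over PDGFRA-HIGH and 4.07 ± 0.09 over PDGFRA-MED), and Cdkn2b rose with it (4.07 ± 0.11 over PDGFRA-HIGH). Cdkn1b (-1.73 ± 0.04) and Cdkn1c (-1.26 ± 0.07) fell in EpCAM relative to PDGFRA-HIGH cells. Of the further replication genes 36 rose and 1 (Cdc7, -2.23 ± 0.06) fell in EpCAM relative to PDGFRA-HIGH cells, and of the further mitosis genes 28 rose and 0 fell. Relative to PDGFRA-MED, 1 further replication gene rose and 5 fell in EpCAM cells, as did 1 and 6 further mitosis genes. Of all genes 21.4% rose and 21.3% fell in that comparison.

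Between CD29-HIGH and PDGFRA-MED cells none of the 41 was called in all 3 regions, while 7.09% of 13334 genes were called lower and 9.52% higher. Limma-voom also called 0, and averaged over regions 1 replication gene had an unadjusted p under 0.05, as did 28.9% of all genes. That gene was Mcm4, with 43.8, 39.2 and 43.8 RPKM in distal, 37.8, 34.6 and 42.0 in mid and 34.3, 29.3 and 36.9 in proximal CD29-HIGH libraries, against 56.5 to 69.9 RPKM in PDGFRA-MED (-0.68 ± 0.04 over regions, adjusted p = 0.00248). Each CD29-HIGH library lay below each PDGFRA-MED library for Mcm4, as for 4 replication genes and 1 mitosis gene in all (16.8% of all genes), and for 0 members above it (20.3% of all genes). The median was -0.16 for replication, -0.03 for mitosis and 0.01 for all genes. Next came Birc5 (-0.58 ± 0.06, adjusted p = 0.33) and the polymerase subunit Pole2 (-0.54 ± 0.06, adjusted p = 0.851). The interval for Mki67 ran from -0.42 to -0.04 and for Mcm6 from -0.32 to -0.16. Of the further genes 2 of 55 mitosis (3.64%), 1 of 50 replication (2%) and 1 of 24 G1 genes (4.17%) were called higher, each share below the 9.52% of all genes. They were Anln, which organises the cleavage furrow (1.78 ± 0.05), Cep55 (0.89 ± 0.05), Pole4 (0.80 ± 0.04) and Ccnd1. Ccnd1 had 22.03 to 56.1 RPKM in CD29-HIGH and 4.24 to 19.8 in PDGFRA-MED libraries (1.74 ± 0.11). The 1 G1 gene called lower was Mycn (-2.92 ± 0.09).

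Along the gut the other sorts showed no member past the threshold. In EpCAM cells 0 members passed between any 2 regions (6.68% of all genes did), with 0 at an unadjusted p under 0.05 between distal and proximal (8.85% of all genes) and medians of 0.12 for replication and 0.11 for mitosis genes. In PDGFRA-MED cells 0 passed (0.876% of all genes), with 0 at an unadjusted p under 0.05 (3.33%) and medians of -0.00 and -0.10. In CD29-HIGH cells 0 passed (2.26%), again with 0 at an unadjusted p under 0.05 (5.2%), but 38 of 39 replication and mitosis genes were on average higher in distal than in proximal libraries (medians 0.25 and 0.34). The 3 distal CD29-HIGH libraries lay above the 3 proximal ones for 30 of 41 members, compared with 21.6% of all genes. Limma-voom called 0 in each of these sorts.

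At E13.5, distal and proximal epithelium held like levels. None of the 41 passed in limma or limma-voom (2.16% of 12473 genes passed in limma), 0 had an unadjusted p under 0.05 (5.91% of all genes did), and the medians were -0.07 for replication and 0.03 for mitosis genes. The tables of both ages were scaled separately, so their levels are set side by side with no test. Mcm6 had 124, 133 and 132 RPKM in distal and 137, 139 and 139 in proximal E13.5 epithelium, and in E16.5 epithelium 82.6 to 86.4 and 83.2 to 100.3 RPKM. Top2a had 115 to 134 RPKM at E13.5 and 57.5 to 82.8 at E16.5, and Pcna 91.3 to 98.4 and 62.3 to 71.4. Mki67 lay in 1 range at both ages, 77.2 to 94.9 RPKM at E13.5 and 71.7 to 97.0 at E16.5. Ccne2 had 9.37 to 10.96 RPKM at E13.5 and 3.98 to 6.16 at E16.5.

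In distal epithelium of LGK974-treated fetuses nearly all mitosis genes fell, but fewer of the replication genes. Axin2, a direct Wnt target used here to check the treatment, had 3.51 to 3.94 RPKM in distal LGK974 and 11.3 to 16.8 in distal control libraries (-1.82 ± 0.13), and it fell in mid (-1.63 ± 0.13) and proximal epithelium (-1.29 ± 0.13) as well. In distal epithelium 24 members fell and 0 rose, while 6.9% of 12865 genes fell and 7.37% rose. These were 14 of 15 mitosis genes, 10 of 24 replication genes and neither cyclin E gene. The median was -1.34 for mitosis and -0.83 for replication genes, and 0.04 for all genes. The 3 LGK974 libraries lay below the 4 controls, vehicle included, for 40 members, compared with 22.5% of all genes. The LGK974 contrasts of the 3 regions use separate libraries, but the untreated controls are the E16.5 libraries described above.

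**Figure D4:**
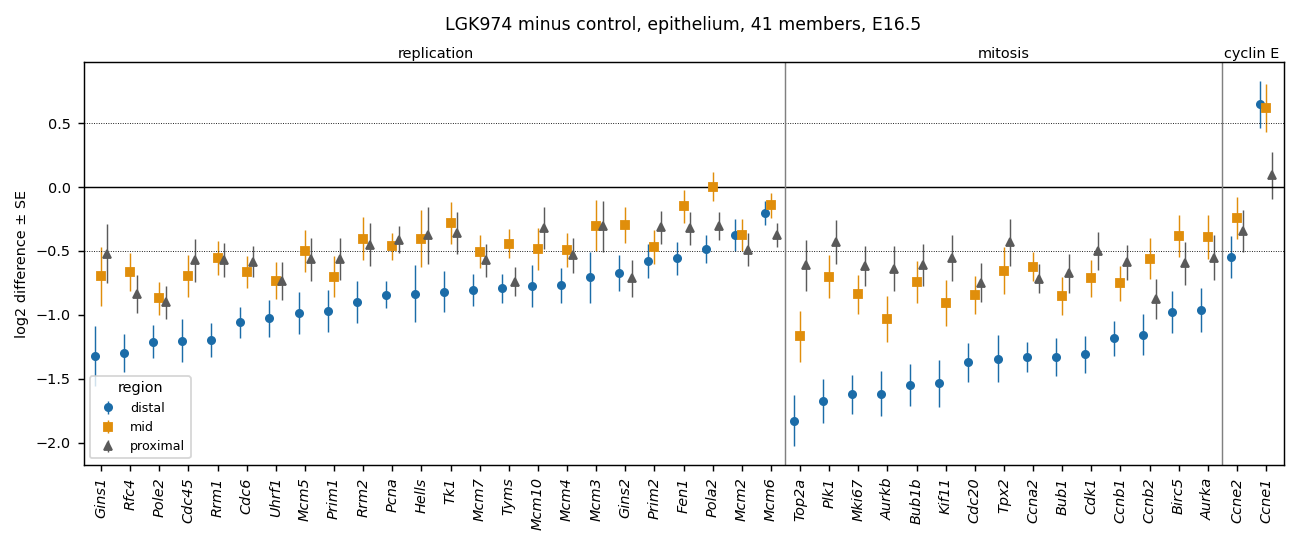
LGK974 minus control difference of each member (log2(RPKM + 0.5), ± SE) in distal, mid and proximal epithelium, with dotted lines at -0.5 and 0.5. Distal mitosis genes lie lowest (median -1.34), and Ccne1 lies above 0 in all regions (0.65, 0.62 and 0.09).

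Top2a had 23.9, 22.9 and 18.8 RPKM in distal LGK974 libraries, against 73.7, 79.5 and 64.3 in untreated and 101 in vehicle epithelium (-1.83 ± 0.20, 3.55-fold lower, adjusted p = 3.4e-05). Plk1 had 5.42, 5.70 and 4.28 RPKM against 17.6, 19.2 and 16.2 and 16.5 (-1.67 ± 0.17, adjusted p = 2.49e-05). Mki67 had 28.3, 28.3 and 31.5 RPKM against 85.0, 87.7 and 82.3 and 113 (-1.62 ± 0.15, 3.08-fold lower, adjusted p = 1.28e-05). For each of these 3 genes all LGK974 libraries were far below all controls, and the vehicle library stood among or above the untreated ones. Ccnb1 had 10.1, 10.6 and 7.32 RPKM in LGK974, 23.4, 23.4 and 19.0 in untreated and 20.8 in vehicle epithelium (-1.18 ± 0.14, adjusted p = 0.000568). Aurka was the mitosis gene that was not called: 7.88, 7.97 and 5.09 RPKM against 15.2, 12.51 and 12.9 and 14.8 (-0.96 ± 0.17, adjusted p = 0.0551), also without overlap.

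Among replication genes the 3 largest changes were those of Gins1, Rfc4 and Pole2. Gins1, of the helicase complex, had 2.23, 3.25 and 2.09 RPKM in distal LGK974 libraries, 6.69, 6.41 and 7.66 in untreated and 7.07 in vehicle epithelium (-1.32 ± 0.23, adjusted p = 0.0104). Rfc4 had 6.69, 7.14 and 6.33 RPKM in LGK974, 19.2, 19.2 and 18.6 in untreated and 12.8 in vehicle epithelium (-1.30 ± 0.15, adjusted p = 0.000307), and Pole2 2.06, 2.004 and 2.13 against 4.93, 5.48 and 6.00 and 5.33 RPKM (-1.21 ± 0.13, adjusted p = 0.000254). Pcna fell by 0.84 ± 0.11 (adjusted p = 0.0178), to 39.4, 36.8 and 27.6 RPKM in LGK974, against 66.7, 62.5 and 59.9 in untreated and 57.8 in vehicle epithelium. The calls of Pcna (adjusted p = 0.21) and Gins1 (adjusted p = 0.0622) were lost without distal LGK974 replicate 3, and that of Pcna also without distal untreated replicate 1 (adjusted p = 0.0587). Mcm6, by contrast, had 72.1, 75.2 and 64.8 RPKM in LGK974, 82.7, 79.3 and 80.0 in untreated and 83.5 in vehicle epithelium (-0.20 ± 0.10, 95% interval -0.41 to -0.00, adjusted p = 1). The LGK974 libraries for Mcm6 were below the controls without overlap, but by little.

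The cyclin E genes went opposite ways in distal epithelium. Ccne1 had 20.0, 23.1 and 13.8 RPKM in distal LGK974 libraries, 12.4, 10.98 and 10.2 in untreated and 13.4 in vehicle epithelium (0.65 ± 0.19, 95% interval 0.26 to 1.04, adjusted p = 0.86), each LGK974 value above each control, as for 27.2% of all genes. In mid epithelium it had 17.7, 24.03 and 19.4 RPKM in LGK974, 13.7, 12.7 and 10.01 in untreated and 16.3 in vehicle libraries (0.62 ± 0.19, adjusted p = 1), and in proximal epithelium LGK974 and control libraries overlapped (0.09 ± 0.19). Ccne2 had 4.12, 3.52 and 2.71 RPKM in distal LGK974, 5.90, 5.67 and 4.30 in untreated and 5.07 in vehicle libraries (-0.54 ± 0.16, adjusted p = 1). Each of these LGK974 values lay below each control, as for 22.5% of all genes. Neither gene passed the test in any region.

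In mid epithelium 1 member fell, Top2a, with 23.7, 43.4 and 33.4 RPKM in LGK974, 78.2, 66.5 and 63.3 in untreated and 89.7 in vehicle libraries (-1.17 ± 0.20, adjusted p = 0.0265), while 4.5% of all genes fell. The call was lost without mid LGK974 replicate 1, without untreated mid replicate 1 or without the mid vehicle library, where 0 members were called, and 4 were called without mid LGK974 replicate 2. Top2a was also not called without mid LGK974 replicate 3 (adjusted p = 0.0629). Mid LGK974 replicate 1 was the lowest of its group, with a mean mitosis level of 3.43 against up to 4.19 on the log2(RPKM + 0.5) scale. Next were Pole2 (-0.87 ± 0.13, adjusted p = 0.0651), Mki67 (-0.84 ± 0.15, adjusted p = 0.201) and Uhrf1 (-0.73 ± 0.15, adjusted p = 0.486), and the medians were -0.74 for mitosis and -0.48 for replication genes.

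In proximal epithelium 0 members passed in limma (0.995% of all genes fell) or in limma-voom, while 3 replication and 2 mitosis genes had an unadjusted p under 0.05, as did 5.92% of all genes in either direction. Pole2 came closest, with 1.98, 2.45 and 2.45 RPKM in LGK974, 5.78, 4.22 and 4.59 in untreated and 4.36 in vehicle libraries (-0.90 ± 0.13, adjusted p = 0.0978), followed by Ccnb2 (-0.88 ± 0.16, adjusted p = 0.325), Rfc4 (-0.84 ± 0.15, adjusted p = 0.391) and Ccna2 (-0.72 ± 0.11, adjusted p = 0.673). Libraries lay apart, LGK974 lower, for 34 of 41 members, compared with 14.7% of all genes, and the medians were -0.61 for mitosis and -0.53 for replication genes. Mki67 had 48.1, 54.7 and 51.1 RPKM in LGK974, 85.3, 71.2 and 69.2 in untreated and 91.8 in vehicle libraries (-0.62 ± 0.15, adjusted p = 1).

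Whether the inhibitor difference itself varied between regions was tested by interaction contrasts. None of the 41 members passed for distal minus proximal in limma (5.21% of all genes did) or in limma-voom, with 6 mitosis genes at an unadjusted p under 0.05 (10.8% of all genes) and medians of -0.81 for mitosis and -0.40 for replication genes. Plk1 came closest (-1.24 ± 0.24, adjusted p = 0.0599), ahead of Top2a (-1.22 ± 0.28, adjusted p = 0.141) and Mki67 (-1.004 ± 0.22, adjusted p = 0.202). Without the proximal vehicle library 2 members passed. For mid minus proximal 0 members passed in limma (2.95% of all genes did) or limma-voom, and 0 had an unadjusted p under 0.05 (7% of all genes did). Within LGK974 epithelium Plk1 alone differed between regions, lower in distal than in proximal libraries (-1.28, adjusted p = 0.0028), as 15.2% of all genes did between some 2 regions, and 5 members did so without mid LGK974 replicate 1.

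The wider pathway in distal epithelium showed the same order of the groups of genes. Of 55 further mitosis genes 51 fell under LGK974 (median -1.25), led by Cenpf (-1.99 ± 0.18), Cdc25b (-1.94 ± 0.15) and Nusap1 (-1.86 ± 0.22), and of 50 further replication genes 14 fell (median -0.70), among them Pole (-1.23 ± 0.18) and Pola1 (-1.10 ± 0.15). Of the G1 regulators 5 fell and 1 rose. Ccnd1 fell most, with 1.28 to 2.32 RPKM in distal LGK974 and 16.6 to 18.1 in control libraries (-3.10 ± 0.19), then E2f7 (-1.33 ± 0.20) and Myc (-1.23 ± 0.20), and Mycn rose (0.92 ± 0.09). The inhibitor Cdkn1c had 839 to 971 RPKM in distal LGK974 and 174 to 269 in control libraries (2.13 ± 0.15), and Cdkn1b fell (-1.13 ± 0.10). In mid epithelium 10 further mitosis genes and 1 further replication gene (Pola1) fell, and in proximal epithelium 0 of either list passed in limma. Cdkn2a, by contrast, had 10.7 to 25.3 RPKM in proximal LGK974 and 0.519 to 1.19 in proximal control libraries (3.65 ± 0.23).

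Several sums of cell type markers differed between LGK974 and control libraries, and in proximal epithelium some differed between untreated and vehicle libraries. The sum of 10 enterocyte markers was 2733 to 3974 RPKM in distal LGK974 and 274 to 1045 in distal control libraries, 10411 to 12357 and 2423 to 3638 in mid, and 6370 to 8318 and 3491 to 5179 in proximal epithelium. The sum of 6 smooth muscle markers was 4.70 to 10.2 RPKM in distal LGK974 and 11.4 to 46.7 in distal control libraries, and that of 6 fibroblast markers 12.0 to 20.1 and 25.7 to 44.2. The sum of 3 markers of interstitial cells of Cajal was 0.710 to 1.008 RPKM in distal LGK974 and 10.5 to 14.4 in distal control libraries, 0.508 to 0.925 and 6.65 to 9.32 in mid, and 4.39 to 7.50 and 5.20 to 13.0 in proximal epithelium. The sum of 4 detected blood markers was 4.72 to 5.80 RPKM in distal LGK974 and 0.932 to 2.86 in distal control libraries, and 5.30 to 5.81 and 1.99 to 3.57 in mid epithelium, and that of the mesothelial markers was 6.18 to 7.06 in distal LGK974 and 2.16 to 3.96 in distal control libraries. In proximal epithelium 5 pancreas markers summed to 3.32 to 9.11 RPKM in LGK974, 0.658 in vehicle and 1889 to 3853 in untreated libraries. Blood markers there summed to 5.44 to 6.18 RPKM in LGK974, 1.81 in vehicle and 4.66 to 6.38 in untreated libraries. The part of these in the results was not tested.

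The balance of the lists was read in every library as the mean log2(RPKM + 0.5) of the 15 mitosis genes minus that of the 24 replication genes, as a description with no test. It was -0.23, -0.26 and -0.29 in distal, -0.18, -0.02 and 0.03 in mid and 0.11, 0.20 and 0.18 in proximal LGK974 libraries, against 0.28, 0.25 and 0.28 in the vehicle libraries of those regions. All 3 distal LGK974 libraries thus lay below every E16.5 library of the other sorts and treatments. At the other end stood distal PDGFRA-HIGH cells, at 0.80, 0.95 and 0.83, where the group mean was 3.65 for mitosis and 2.79 for replication genes. PDGFRA-HIGH libraries had 0.63, 0.60 and 0.43 in mid and 0.79, 0.43 and 0.25 in proximal intestine. CD29-HIGH libraries had 0.25 to 0.49, PDGFRA-MED 0.06 to 0.36 and untreated E16.5 epithelium 0.18 to 0.33, and E13.5 epithelium, in its own table, -0.19 to -0.03.

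**Figure D5:**
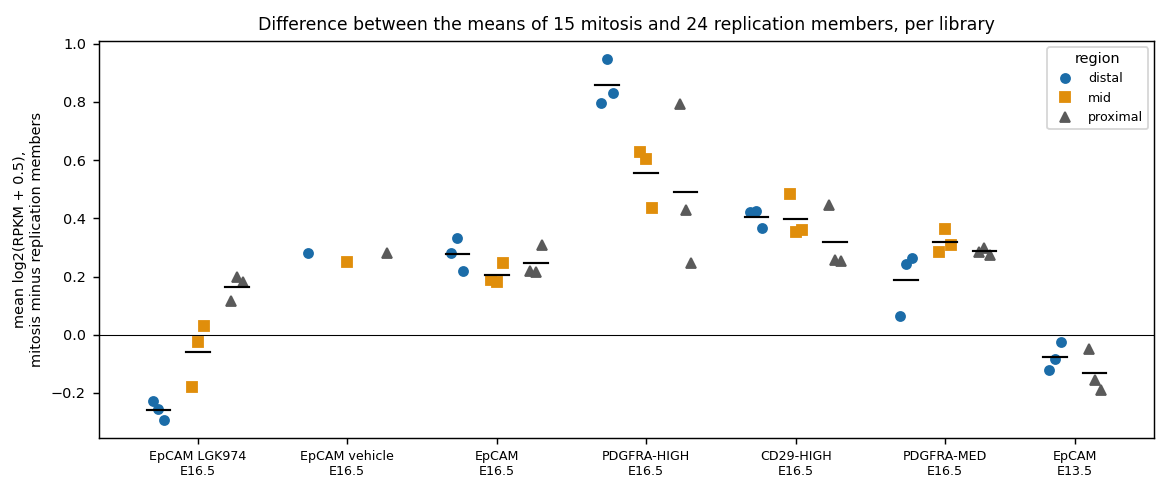
Mean log2(RPKM + 0.5) of mitosis members minus that of replication members in each library (points, with a line at the group mean), by group and region. Distal LGK974 libraries lie at -0.29 to -0.23 and distal PDGFRA-HIGH libraries at 0.80 to 0.95.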

How the data were processed

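The data are total RNA-seq libraries of sorted cells (SMARTer stranded pico kit). Per the study's methods, the authors aligned reads to mm10 with Rsubread, counted them strand-specifically over RefSeq genes with featureCounts, filtered low genes, scaled each of the 4 tables on its own (TMM) and deposited RPKM values made with edgeR. One deposited table also holds the authors' mean log2 expression per gene, made with limma, which was not used. Reads recovered from the values with the RefSeq gene lengths of the tables were whole within 0.01 for 100% of values. Each table was tested with limma 3.58.1 (R 4.3.3) on log2(RPKM + 0.5), which understates changes of low genes, after keeping genes with at least 1 RPKM in at least 3 libraries. Groups were fitted with the replicate number (the mother in the study's methods) as a block, without it in the LGK974 table, where numbers join separate experiments. Contrasts were tested with treat against a minimum log2 change of 0.5, robust and with trend, adjusted by Benjamini-Hochberg over all genes tested. Libraries with the same number deviated together with a mean correlation of 0.137 among the sorts, 0.239 in the CD29-HIGH table, 0.2 at E13.5 and 0.135 in the LGK974 table. The members kept a clearer order in PDGFRA-HIGH cells. Replicate 1 had the highest mean mitosis level in distal, mid and proximal intestine (3.85, 3.26 and 3.39). Replicate 3 had the lowest (3.33, 2.63 and 2.30). Mean replication levels in EpCAM cells kept this order too, but PDGFRA-MED levels did not. A block shared by all sorts does not remove an order held by some sorts only. The test was checked on simulated data. Members, lists and motifs were chosen with earlier results of these data known. Members in each comparison were named as the 3 called with the largest change in each list, or the 2 with the smallest p where none was called, beside the exceptions where most of a list was called and Pcna, Mcm6, Mki67, Ccnb1, Ccne1 and Ccne2. Alternatives were other pseudocounts, filters, scalings (quantile, median of ratios), limma-voom on recovered reads, no minimum change, fits with or without the block, of the compared groups alone or with 1 control type, and leaving out each library.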

Additional observations from a re-analysis of the deposited data

Results flagged for a closer look

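Rfc4 in the distal control epithelium had 12.8 RPKM in the vehicle library (12.8265 before rounding) and 18.6 to 19.2 in the 3 untreated libraries, a gap of 0.897 of the whole range. Of 45 groups of 4 control libraries looked at, this was the 1 set apart in this way, and chance sets apart about 1 in 20.

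For some genes around the members, the LGK974 minus control difference itself differed between distal and proximal epithelium in limma. It was more negative in distal epithelium for Cenpf by -1.55, Ncaph by -1.34 and Ckap2 by -1.26, and for the G1 regulators Ccnd1 by -2.67, Myc by -1.45 and Ccnd2 by -1.39 (log2). Among the inhibitors the distal minus proximal difference was -3.44 for Cdkn2a, -1.81 for Cdkn1a and 2.66 for Cdkn1c. Between mid and proximal epithelium it was -2.42 for Ccnd1, -1.56 for Cdk6, -2.88 for Cdkn2a, -1.97 for Cdkn1a and 1.64 for Cdkn1c. There 2 of 24 G1 regulators (8.33%), 0 of 55 further mitosis genes and 0 of 50 further replication genes passed, next to 2.95% of all genes.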

How the results depend on the processing

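The counts of members called in PDGFRA-HIGH against PDGFRA-MED (37), EpCAM against PDGFRA-HIGH (33) and distal LGK974 against control (24) stayed within 1.5 times under the alternatives run, except that without a minimum change 40 members were called in distal LGK974 epithelium (51.3% of all genes were). Without a minimum change the counts, each with the share of all genes called, were also 10 (48.1%) for CD29-HIGH against PDGFRA-MED, 14 (70.4%) for EpCAM against PDGFRA-MED, 25 (34%), 4 (38.1%) and 34 (22.6%) between regions in CD29-HIGH, EpCAM and PDGFRA-HIGH cells, 28 (23.9%) in proximal and 30 (42%) in mid LGK974 epithelium, 30 (50.2%) between regions under LGK974, 14 (22.7%) for the LGK974 difference, distal minus proximal, and 22 (9.29%) and 17 (26.1%) for the distal minus proximal difference of PDGFRA-HIGH against PDGFRA-MED and of EpCAM against PDGFRA-HIGH. With a pseudocount of 0.1 they were 1 in proximal and 3 in mid LGK974 epithelium, 1 for the LGK974 difference and 2 between regions under LGK974. Quantile scaling gave 1 for CD29-HIGH against PDGFRA-MED, 1 for the LGK974 difference and 2 for EpCAM against PDGFRA-MED. Median-of-ratios scaling gave 2 in mid LGK974 epithelium, 1 for the LGK974 difference and 2 between regions under LGK974, and limma-voom 3 and 2 for mid and between regions, and 2 for EpCAM against PDGFRA-MED. With the compared groups alone fitted, 2 were called for EpCAM against PDGFRA-MED, 5 between regions in PDGFRA-HIGH, 0 in mid LGK974 epithelium and 1 for the LGK974 difference. The cause of these shifts was not tested.

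With the replicate block, 2 members were called in mid LGK974 epithelium, against 1 without it, and 24 in distal and 0 in proximal epithelium. Without the replicate block the sort comparisons gave 37, 32 and 1 calls, and 0 members between regions.

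Leaving out 1 library at a time gave 33 to 39 calls for PDGFRA-HIGH against PDGFRA-MED, 30 to 35 for EpCAM against PDGFRA-HIGH, 1 to 2 for EpCAM against PDGFRA-MED, 0 to 13 between regions in PDGFRA-HIGH cells, 19 to 26 in distal, 0 to 4 in mid and 0 to 0 in proximal LGK974 epithelium, 1 to 5 between regions under LGK974, 0 to 2 for the LGK974 difference, distal minus proximal, and 0 to 8 and 0 to 5 for the distal minus proximal differences of PDGFRA-HIGH against PDGFRA-MED and of EpCAM against PDGFRA-HIGH. It gave 0 to 0 for CD29-HIGH against PDGFRA-MED and in the remaining comparisons. EpCAM against PDGFRA-MED reached 2 without proximal PDGFRA-MED replicate 3 or distal replicate 1. Without proximal PDGFRA-HIGH replicate 1 the calls were 13 between regions in PDGFRA-HIGH cells and 8 and 5 for both distal minus proximal differences, and without distal replicate 3 there was 1 call between regions. The call in mid LGK974 epithelium was lost without mid untreated replicate 1, the mid vehicle library or mid LGK974 replicate 1, and calls became 2 without mid untreated replicate 3 and 4 without mid LGK974 replicate 2. Between regions under LGK974 there were 5 calls without mid LGK974 replicate 1 and 2 without mid replicate 3, and the LGK974 difference had 2 calls without the proximal vehicle library.

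Of the values of named members under all alternatives, 1488 kept direction and side of the threshold, 26 passed it newly, 7 no longer passed (4 of Top2a in mid and 2 of Pcna and 1 of Gins1 in distal LGK974 epithelium) and 10 turned, all of them small values that were not called. Under quantile scaling Ccnb1 turned to -0.081 and Ccne2 to -0.014 for CD29-HIGH against PDGFRA-MED, and Ccnb1 to -0.13, Mcm6 to -0.10 and Pcna to -0.25 for EpCAM against PDGFRA-MED. With 1 library left out, the difference of Ccnb1 ran from -0.014 to 0.090 for CD29-HIGH against PDGFRA-MED and from -0.046 to 0.101 for EpCAM against PDGFRA-MED, that of Ccne1 from -0.0071 to 0.199 in proximal LGK974 epithelium and that of Mcm6 from -0.041 to 0.194 in distal against proximal PDGFRA-HIGH cells. Quantile scaling moved the share of higher among all called genes in mid LGK974 epithelium to 49.3%, against 38.4%, and limma-voom that in proximal epithelium to 71.3%, against 54.4%. With 3 libraries a group, and 1 vehicle library a region, differences near the minimum change could not be resolved, and members at a few RPKM rest on as few as 20 reads.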

Other observations

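Of 6 inhibitors of cyclin-dependent kinases tested in LGK974 epithelium, 2 rose and 1 fell in distal, 2 rose and 1 fell in mid and 3 rose and 1 fell in proximal epithelium. Of all genes 7.37% rose and 6.9% fell in distal, 2.81% and 4.5% in mid and 1.19% and 0.995% in proximal epithelium. Cdkn2b rose in each region, with 11.5 to 16.8 RPKM in distal LGK974 libraries and 5.90 to 8.21 in controls, 11.4 to 16.1 and 4.33 to 6.27 in mid, and 33.9 to 52.1 and 12.9 to 19.9 in proximal epithelium. Cdkn1b fell in each region and was the 1 inhibitor called lower there. The lower Cdkn1a values in distal and mid epithelium and the lower Cdkn1c values in proximal epithelium, given next, were thus not called. Cdkn1a had 9.10 to 11.8 RPKM in distal and 7.88 to 10.4 in mid LGK974 libraries, below the controls of 14.0 to 17.8 and 14.2 to 16.4, but 33.9 to 43.9 in proximal LGK974 libraries, above the controls of 13.4 to 17.9 (1.21 ± 0.12, limma adjusted p = 0.00106). Cdkn1c had 839 to 971 RPKM in distal LGK974 libraries and 174 to 269 in controls, 482 to 616 and 231 to 253 in mid, and 94.9 to 142 in proximal LGK974 libraries and 161 to 196 in controls. Of 24 G1 regulators 1 rose and 0 fell in proximal epithelium. Ccnd2 had 156 to 183 RPKM in proximal LGK974 libraries and 70.5 to 81.0 in controls (1.18 ± 0.09). Ccnd1, which was not called there, had 5.76 to 6.07 and 7.08 to 9.67.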
